A study of Mus musculus with 18 samples.

Results

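The genes described here encode the proteins of the cytosolic ribosome in mouse mammary epithelial organoids. They were chosen by name: symbols of the Rpl and Rps series, with Rplp0, Rplp1, Rplp2 and Rpsa, and without pseudogene names and the S6 kinase genes. The rule found 91 genes, of which 90 are among the 56893 features of the Torin table, 89 among the 56691 features of the estradiol table, and 88 in both. By name they fall into 43 genes of the large subunit, 31 of the small subunit, 3 of the stalk, 8 paralogs and 6 copy-like loci. The first 3 classes hold 77 genes and are called the core genes here. No measured value entered the choice.

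Organoids were grown from mammary epithelium of nulliparous wild type C57BL/6 adults, and polyadenylated RNA was sequenced in 18 libraries. In the first experiment, on cells from mice of about 24 weeks, the groups were Estradiol (10 nM for 11 days) and Ethanol, its solvent, both collected after 12 days of culture. In the second, on cells from mice of about 15 weeks, the groups were Torin D6 and DMSO D6, and Torin D12 and DMSO D12, all collected after 18 days of culture. Each group had 3 libraries. Torin 1, an inhibitor of the mTOR kinase, was given at 100 nM, and DMSO is its solvent. No genotype, transgene or other agent separates the groups. The sample titles read D6 and D12 as 6 and 12 days of treatment and the series design reads them the other way round, so the arms are named D6 and D12 only. The labels also tag the arms as different batches, so batch, the days of treatment and the day it began cannot be told apart. The labels do not state whether the 3 libraries of a group came from separate mice, and p-values measure only the spread between these libraries.

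Ribosomal proteins are made in near-equal amounts and assembled with ribosomal RNA in the nucleolus. Their messenger RNAs are among the most abundant of a growing cell and carry a 5′ terminal oligopyrimidine tract, a C followed by a run of C and T (U in RNA) at the very start of the transcript. Through this tract the protein Larp1 and the mTOR kinase govern how strongly these messages are translated and how stable they are. The libraries here measure RNA levels and not translation.

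Sequences around annotated starts are shown for 10 genes on which the results below turn, to let the tract be seen where it is annotated and where it is not. Each is 30 bases of the transcribed strand from RefSeq (GRCm38.p6), with 5 bases before the annotated start and 25 from it. Capitals mark a C followed by at least 4 further C or T whose first base lies within 5 bases of the start on either side, searched on the transcribed strand only. Rps6 (chr4:86857343-86857372, minus strand), Rps27 (chr3:90213624-90213653, minus), Rps23 (chr13:90923117-90923146, plus), Rpl12 (chr2:32961707-32961736, plus), Rplp2 (chr7:141447646-141447675, plus) and the paralogs Rps27l (chr9:66946081-66946110, plus) and Rpl22l1 (chr3:28805503-28805532, plus) hold such a tract there. Rpl7l1 (chr17:46782632-46782661, minus), Rps12 (chr10:23787185-23787214, minus) and Rpsa (chr9:120127761-120127790, plus) do not.
Rps6: cgggCCTCTTTTTCgtgacgcctcccaggc
Rps27: tcgCTCCTTTCCggcggtgacgacctccct
Rps23: gggcggggCTTCCCgcaatgccttgtgggt
Rpl12: gatccgtCTTTTCggctttcggctcggagg
Rplp2: tCTTCCTTTCgccgccggacgccgccgagg
Rps27l: ccgccgCCTCTatcccggaagttgctgagg
Rpl22l1: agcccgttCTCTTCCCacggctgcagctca
Rpl7l1: gcaagcgcagtagctgaagcaccggaaaga
Rps12: cggccaccgccggccttttcccctgccgcc
Rpsa: taaggacgtcatttccggccgcccgtcctt
The Rps12 window holds a run of C and T further in, which the search does not count. Of the 65 ribosomal protein genes in the RefSeq table, 30 (46.2%) had a tract at 1 or more annotated starts, as did 27 of 57 core genes (47.4%) and 2 of 7 paralogs (28.6%). Over all 27025 genes of the table the share was 21.2%. A match is a description of annotated letters, and a window without one says only that these letters are not at this annotated start.

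Estradiol and Ethanol libraries held 20637765 to 24312389 counts, and Torin and DMSO libraries 23239364 to 28910688. A test covered 15358 genes in the estradiol experiment and 18112 in the Torin experiment, and it included 83 ribosomal protein genes in each: all 77 core genes, 5 paralogs and 1 copy-like locus. The remaining genes were too low to be tested. In the Torin experiment these were Rpl3l, Rpl10l, Rpl39l, Rpl32l, Rpl6l, Rps3a2 and Rps3a3, with at most 1.05 CPM (Rpl39l) in any library, and those of the estradiol experiment are given with the paralogs below. The biological coefficient of variation was 5.27% with estradiol and 20.2% with Torin, so a change of equal size passed more readily in the first experiment. Levels of a gene are given as CPM, counts relative to a library total scaled by the trimmed mean of M-values (TMM), and are not compared between the experiments, which were scaled separately. The third library of both Torin groups stood apart in these genes, and counts of genes past the threshold in the Torin arms are given with and without those libraries.

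Ribosomal protein genes together took a smaller share of the counts with estradiol, and a larger one in the third Torin libraries. They took 5.44, 5.26 and 5.55% of counts in the Estradiol libraries, against 6.07, 6.44 and 6.52% in the Ethanol libraries. The groups did not overlap, and their means were 5.42 ± 0.146% in Estradiol and 6.34 ± 0.237% in Ethanol (SD, n = 3 each). The share was 2.73, 2.33 and 3.51% in Torin D6, against 2.21, 2.30 and 2.08% in DMSO D6, and 2.38, 2.42 and 3.43% in Torin D12, against 2.41, 2.41 and 2.09% in DMSO D12. Torin D6 libraries were all above those of DMSO D6, while in the D12 arm the groups overlapped. No p-value is given for these sums. In bulk RNA, fewer cells of a type and less RNA per cell cannot be told apart.

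**Figure D1:**
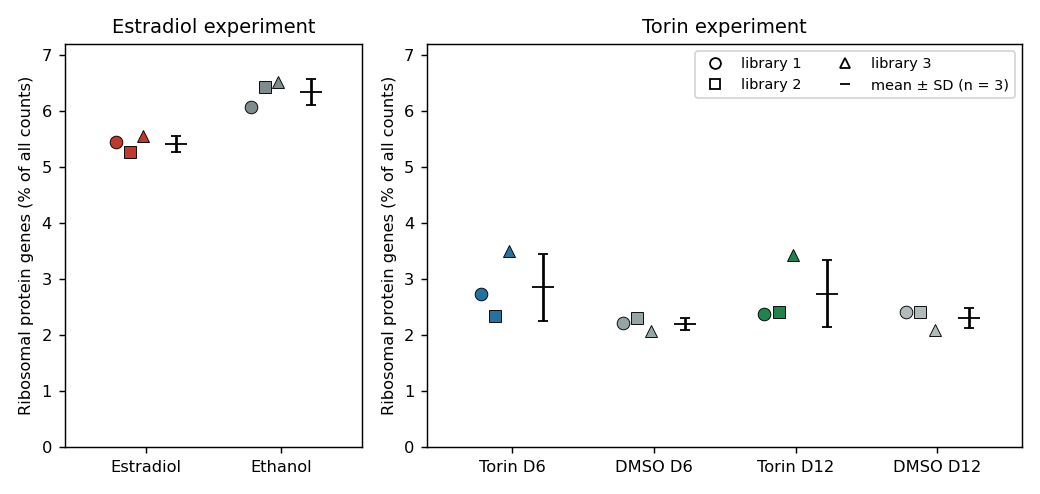
Share of all counts (%) taken by the ribosomal protein genes in each library, with the mean and SD of 3 libraries beside each group; marker shapes give the library number. The 3 Estradiol libraries lie between 5.26 and 5.55%, below the Ethanol libraries, and the triangles of Torin D6 (3.51%) and Torin D12 (3.43%) lie above all other Torin and DMSO libraries.

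With estradiol nearly every core gene fell, by a similar and small amount. Of the 77 core genes 76 fell and none rose, with a Benjamini-Hochberg adjusted p under 0.05 in edgeR's quasi-likelihood test, while 34.0% of all genes tested changed (17.4% rose and 16.6% fell). The median log2 fold change of the core genes was −0.32, with a range of −0.44 to −0.04, beside −0.01 for all genes tested. Groups did not overlap for 76 of the 77, compared with 46.4% of all genes tested. Against the mean of the Ethanol libraries, the median core gene lay at a log2 of −0.29, −0.37 and −0.30 in the 3 Estradiol libraries. In those libraries 0, 0 and 1 of the 77 core genes were above the Ethanol mean.

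The stalk recruits the translation factors to the ribosome, and its 3 genes all fell with estradiol. Rplp0, the base of the stalk, had 1901, 1822 and 1789 CPM in Estradiol, against 2023, 2197 and 2141 CPM in Ethanol, so the groups did not overlap. Its log2 fold change was −0.21 (SE 0.039; Benjamini-Hochberg adjusted p = 8.4e-04 in the edgeR test). Rplp1 had 1110, 1047 and 1073 CPM in Estradiol, against 1260, 1279 and 1268 CPM in Ethanol (log2 −0.24). Rplp2 had 396, 393 and 403 CPM in Estradiol, against 452, 469 and 476 CPM in Ethanol (log2 −0.23). Every Estradiol library was below every Ethanol library for both.

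All 31 small subunit genes fell with estradiol, with a median log2 of −0.34. Rps6, the substrate of S6 kinase downstream of mTOR, had 975, 964 and 961 CPM in Estradiol, against 1139, 1184 and 1234 CPM in Ethanol (log2 −0.29, SE 0.038). Rpsa, which is also known as a laminin receptor, had 1648, 1542 and 1611 CPM in Estradiol, against 1848, 1956 and 1909 CPM in Ethanol (log2 −0.25, SE 0.037). Neither gene's groups overlapped. Rps23, a protein of the decoding centre, had the largest fall of any core gene, with 237, 224 and 231 CPM in Estradiol, against 301, 315 and 319 CPM in Ethanol (log2 −0.44, SE 0.041). Rps18, often used as a reference gene in PCR, fell by 0.33 on the log2 scale (SE 0.036). Rps2 had the smallest fall of the small subunit genes (log2 −0.16, SE 0.037), with 1762, 1673 and 1776 CPM in Estradiol, against 1875, 1985 and 1959 CPM in Ethanol.

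Of the 43 large subunit genes 42 fell with estradiol, with a median log2 of −0.31. Rpl22, an RNA-binding protein of the large subunit, had 391, 382 and 395 CPM in Estradiol, against 536, 533 and 509 CPM in Ethanol (log2 −0.43, SE 0.038; Benjamini-Hochberg adjusted p = 7.7e-07 in the edgeR test). Rpl37a (log2 −0.43) and Rpl36a (log2 −0.42) were close to it. Rpl13a, another common PCR reference, had 1526, 1444 and 1552 CPM in Estradiol, against 1819, 1870 and 1854 CPM in Ethanol (log2 −0.29, SE 0.036). Rpl6 had the smallest fall (log2 −0.13, SE 0.038; adjusted p = 0.016). Rpl5 and Rpl11, which with 5S ribosomal RNA bind the p53 regulator Mdm2, differed in outcome on their own rows. Rpl11 fell by 0.34 on the log2 scale (SE 0.041). The Rpl5 row did not pass the test, but it fell when summed with its copies, as given next.

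Rpl5 had 52.9, 53.2 and 57.2 CPM in Estradiol, against 59.2, 53.0 and 56.2 CPM in Ethanol, and the groups overlapped (log2 −0.04, SE 0.053; Benjamini-Hochberg adjusted p = 0.559 in the edgeR test). All of its coding sequence is shared, in words of 31 bases, with other annotated genes. Rows of 3 near-identical copies, chosen because they hold at least 50% of its coding words, held 1176, 1128 and 1239 CPM in Estradiol, against 1562, 1583 and 1510 CPM in Ethanol. Summed with these copies, the Rpl5 row fell by 0.38 on the log2 scale (adjusted p = 2.3e-06). Rpl12 was in the same position: its own row had 51.8, 51.6 and 52.3 CPM in Estradiol, against 66.0, 64.4 and 64.4 CPM in Ethanol, while 3 copies held 1020, 954 and 1013 CPM in Estradiol, against 1190, 1239 and 1208 CPM in Ethanol. With every core row summed with its copies, all 77 core genes fell, with a median log2 of −0.32. This summing was added after the data were seen, and how reads shared between copies were assigned is not stated.

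The paralogs did not follow the core genes. Of the 5 tested, Rpl7l1 rose with estradiol and none fell, with a median log2 of 0.07. Rpl7l1 had 120, 118 and 117 CPM in Estradiol, against 103, 106 and 109 CPM in Ethanol, with no overlap (log2 0.16, SE 0.043; Benjamini-Hochberg adjusted p = 0.011 in the edgeR test). Its partner Rpl7 had 1280, 1212 and 1295 CPM in Estradiol, against 1598, 1608 and 1588 CPM in Ethanol (log2 −0.34). Rpl22l1, whose RNA is known to be repressed by Rpl22 in mouse, had 125, 113 and 137 CPM in Estradiol, against 121, 116 and 119 CPM in Ethanol, and did not pass (log2 0.07, SE 0.058). Rps27l, a p53 target in human cells, had 141, 130 and 149 CPM in Estradiol, against 137, 133 and 132 CPM in Ethanol (log2 0.06, SE 0.051), and its groups overlapped too. Rpl36al (log2 −0.09, SE 0.043) and Rps4l (log2 0.22, SE 0.11) also did not pass, with adjusted p = 0.116 and 0.128.

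Per kilobase of coding sequence, the paralog took a larger part of 4 pairs in the Estradiol libraries. Rpl22l1 made 25.1 ± 1.44% of the Rpl22 and Rpl22l1 level in Estradiol and 19.1 ± 0.506% in Ethanol (SD, n = 3 each). For Rps27l and Rps27 the paralog's part was 23.8 ± 0.653% in Estradiol and 18.4 ± 0.551% in Ethanol. Rpl36al made 44.0 ± 0.0841% of its pair with Rpl36a in Estradiol and 38.4 ± 0.929% in Ethanol, and Rpl7l1 made 9.34 ± 0.321% of its pair with Rpl7 in Estradiol and 6.80 ± 0.218% in Ethanol. In none of these 4 pairs did the libraries of the groups overlap, while levels of single genes did not overlap for 46.4% of all genes tested. The partners all fell (Rpl22 by 0.43, Rpl36a by 0.42, Rps27 by 0.41 and Rpl7 by 0.34 on the log2 scale). Of the 4 paralogs only Rpl7l1 changed. All coding words of Rpl36a, Rpl36al and Rps27 are shared with other genes, and how such reads were assigned is not stated. Rpl3l, known from striated muscle, and Rpl10l and Rpl39l, known from testis, had at most 0.188 CPM in any library of this experiment and were not tested. The copy-like loci Rps12l1, Rps12l2 and Rps3a3 had at most 0.415 CPM there. Rps3a2, the copy-like locus that was tested, had 0.495, 0.323 and 1.27 CPM in Estradiol, against 1.04, 0.462 and 1.51 CPM in Ethanol, and did not pass.

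**Figure D2:**
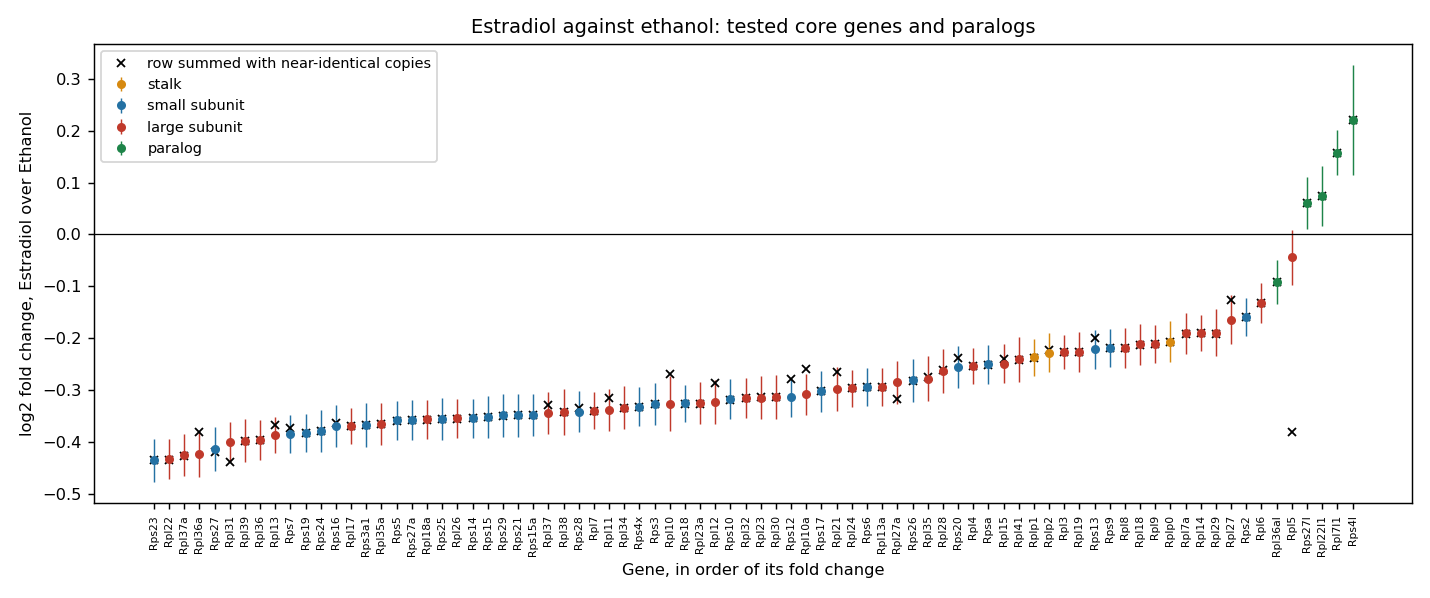
Log2 fold change of Estradiol over Ethanol for tested core genes and paralogs, in order of the fold change, with bars of 1 SE and colours for the class; crosses show the row summed with near-identical copies. Core genes lie between −0.44 and −0.04, 4 of the 5 paralogs lie above 0, and the cross of Rpl5 (−0.38) lies far below its point.

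To see which genes moved apart from their family, the same test was run relative to the ribosomal protein pool, with the summed counts of these genes as the library size. On that scale 22 of the 83 genes changed with estradiol, 11 higher and 11 lower, while 61.7% of all genes tested changed (56.8% rose and 4.97% fell). The split depends on how the pool is scaled: with TMM over these genes 22 changed as well, 17 higher and 5 lower. The largest rises relative to the pool were of the paralogs Rps4l (log2 0.51, SE 0.11), Rpl7l1 (log2 0.45, SE 0.048), Rpl22l1 (log2 0.36, SE 0.058) and Rps27l (log2 0.35, SE 0.051). Rpl36al (log2 0.20), Rpl6 (log2 0.16) and Rps2 (log2 0.13) rose less, and Rpl5 rose by 0.25, a value that applies to its own row without the copies. The largest falls relative to the pool were of Rps23 (log2 −0.14), Rpl22 (log2 −0.14) and Rpl37a (log2 −0.13). These 11 genes changed relative to the pool in all 9 settings run, which were all libraries without a block, the replicate block, another scaling of the pool and each library left out. The count itself was 13 with the replicate block (8 higher and 5 lower), 13 without Ethanol library 1, 13 without Ethanol library 2 and 12 without Estradiol library 1.

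Before the Torin comparisons, the spread between libraries of a group is given, since it differed from the estradiol experiment. In Torin D6 the median core gene of library 3 lay 0.59 higher on the log2 scale than the mean of the other two libraries, and 76 of 77 core genes were higher. In Torin D12 the same difference was 0.49, and 73 of 77 core genes were higher in library 3. Library 3 of DMSO D6 and of DMSO D12 differed the other way, by −0.15 and −0.21, with 73 of 77 core genes lower in each. Over the 11192 genes with at least 5 CPM, the median difference of library 3 was −0.01 in Torin D6, 0.00 in Torin D12, −0.03 in DMSO D6 and −0.01 in DMSO D12. The depth of the third Torin libraries was 27540703 counts in D6 and 27360538 in D12, within the range of the experiment.

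The deviation was not equal over the genes. In Torin D6 it ran from −0.28 for Rps12 to 1.17 for Rpl37a, and in Torin D12 from −0.71 for Rps12 to 0.91 for Rpl39. Across the 77 core genes the deviations of library 3 in the 2 Torin groups had a Pearson correlation of 0.74 and a Spearman correlation of 0.72. Genes are not independent replicates, and the points share gene length, base composition and the number of copies, so the value is a description. The 73 core genes that were higher in library 3 of Torin D12 were also higher in library 3 of Torin D6.

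**Figure D3:**
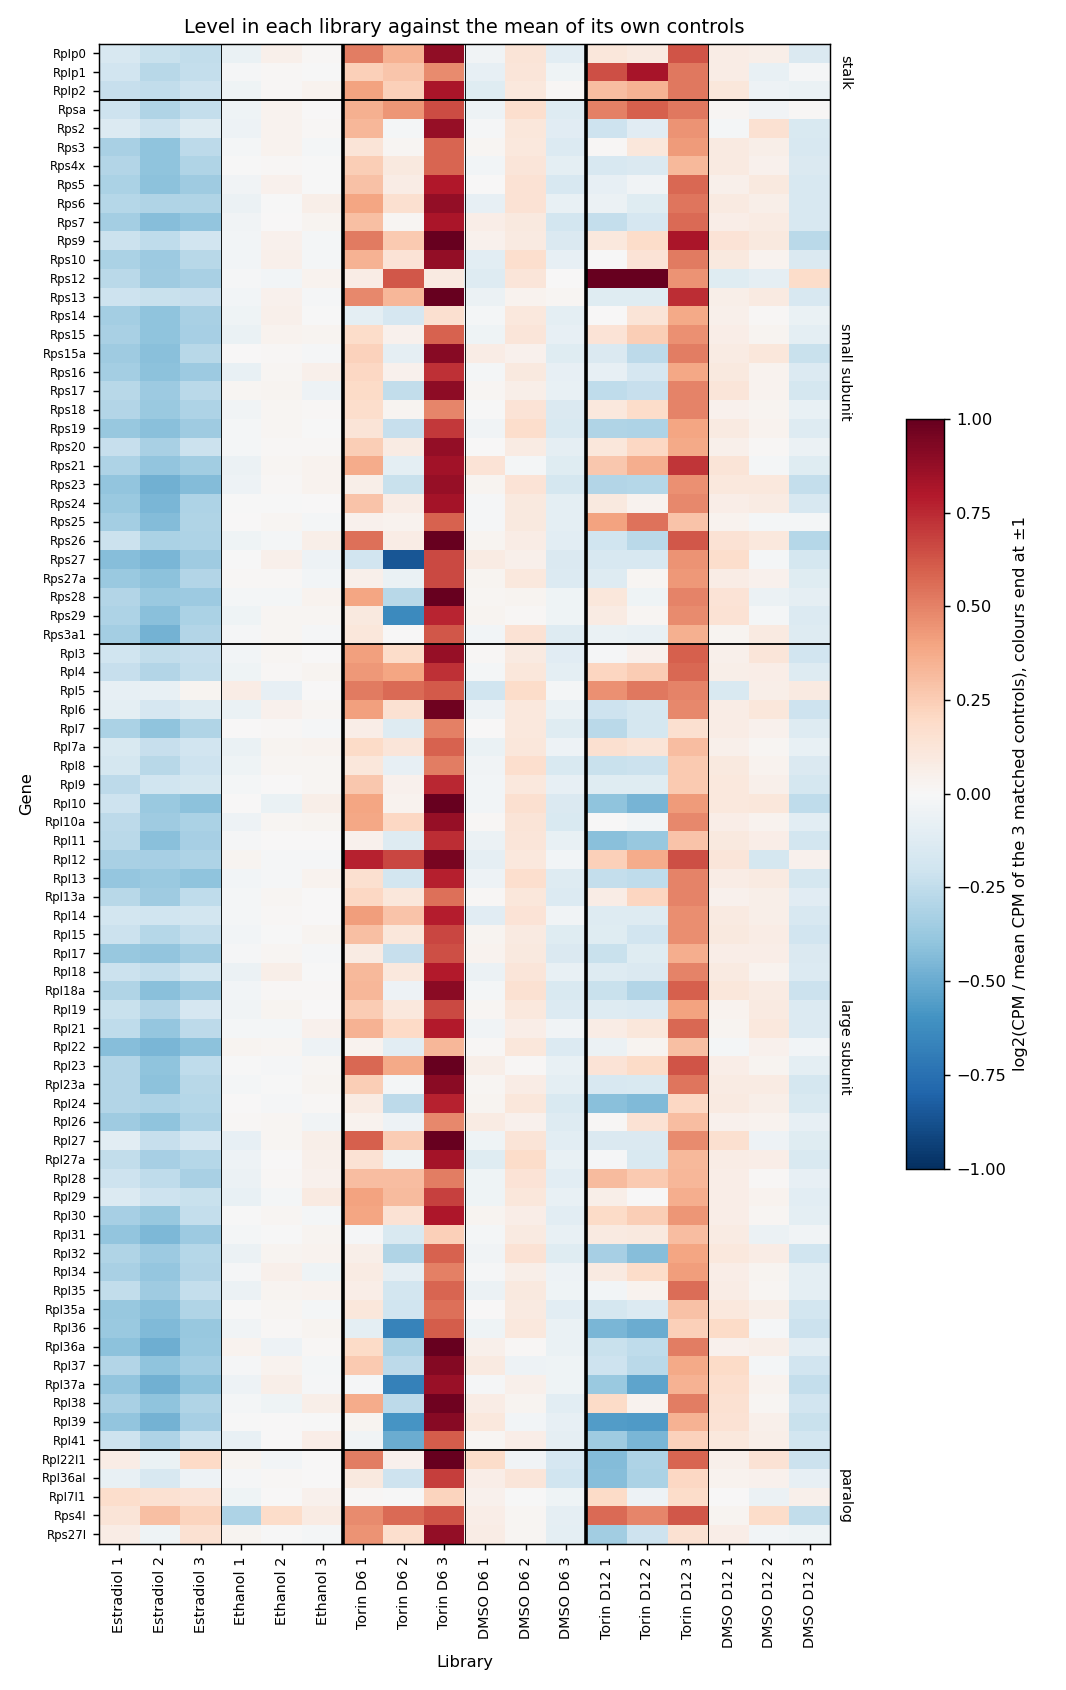
Level of core genes and tested paralogs (rows, by class) in each of the 18 libraries (columns) as log2 of the CPM over the mean CPM of the 3 matched control libraries; colours end at ±1. Estradiol columns are pale blue almost throughout, the third column of each Torin group is red for nearly every gene, and Rps12 is red in the first and second Torin D12 columns.

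In the D6 arm, some of the tested genes of the family rose with Torin and none fell. Of the 83 tested genes 23 rose, while 39.1% of all genes tested changed (19.8% rose and 19.3% fell). The median core gene had a log2 of 0.38, beside 0.05 for all genes tested, and 76 of 77 core genes had a positive value. Groups did not overlap for 27 of the 77, compared with 48.5% of all genes tested. Against the mean of DMSO D6 the median core gene lay at 0.25, 0.04 and 0.78 in the 3 Torin D6 libraries, with 71, 43 and 77 of 77 core genes above that mean. The count of 23 was 45 without Torin D6 library 2 and 13 without Torin D6 library 3. It was 14 without DMSO D6 library 1 and 11 without DMSO D6 library 3.

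All 3 stalk genes rose in the D6 arm. Rplp0 had 1392, 1244 and 1804 CPM in Torin D6, against 952, 1067 and 909 CPM in DMSO D6 (log2 0.60, SE 0.16; Benjamini-Hochberg adjusted p = 0.0124 in the edgeR test). Rplp1 had 278, 286 and 328 CPM in Torin D6, against 223, 256 and 229 CPM in DMSO D6 (log2 0.33, SE 0.094). Rplp2 had 173, 155 and 231 CPM in Torin D6, against 121, 141 and 132 CPM in DMSO D6 (log2 0.51, SE 0.13). No Torin D6 library of these 3 genes was as low as any DMSO D6 library.

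Of the small subunit genes 5 of 31 rose in the D6 arm, among them Rps9, Rps13 and Rpsa, while 19.8% of all genes tested rose. Rps13 had 102, 92.0 and 153 CPM in Torin D6, against 70.3, 74.7 and 74.1 CPM in DMSO D6 (log2 0.66, SE 0.23; adjusted p = 0.0401). Rpsa had 272, 289 and 334 CPM in Torin D6, against 205, 238 and 194 CPM in DMSO D6 (log2 0.49, SE 0.091; Benjamini-Hochberg adjusted p = 0.0012 in the edgeR test). Both genes were higher in all 3 Torin libraries. Rps6 had 671, 572 and 938 CPM in Torin D6, against 482, 565 and 487 CPM in DMSO D6, without overlap, and did not pass (log2 0.51, SE 0.20; adjusted p = 0.0589). Rps27 had 285, 179 and 514 CPM in Torin D6, against 343, 337 and 294 CPM in DMSO D6, so libraries 1 and 2 were below every control and library 3 above (log2 0.01, SE 0.30).

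Of the large subunit genes 13 of 43 rose in the D6 arm, while 19.8% of all genes tested rose. Rpl12 had the largest rise, with 23.1, 21.4 and 26.1 CPM in Torin D6, against 12.7, 14.5 and 13.3 CPM in DMSO D6 (log2 0.80, SE 0.13; Benjamini-Hochberg adjusted p = 5.6e-04 in the edgeR test). Summed with its 3 copies, Rpl12 rose by 0.30 on the log2 scale (adjusted p = 0.0398). Rpl23, which in human cells also binds Mdm2, had 208, 181 and 315 CPM in Torin D6, against 145, 140 and 132 CPM in DMSO D6 (log2 0.75, SE 0.18). Rpl5 had 61.7, 63.7 and 65.5 CPM in Torin D6, against 37.5, 48.9 and 42.5 CPM in DMSO D6 (log2 0.57, SE 0.098). Its near-identical copies held at most 0.61 CPM in any library of the Torin experiment. How reads of its shared sequence were assigned there is not stated either. Library 3 of Torin D6 stood apart for Rpl23 and not for Rpl5. Rpl11 had 144, 128 and 233 CPM in Torin D6, against 134, 152 and 133 CPM in DMSO D6, and did not pass. The others that rose were Rpl3, Rpl4, Rpl7a, Rpl10a, Rpl14, Rpl21, Rpl27, Rpl28, Rpl29 and Rpl30, with log2 values of 0.32 to 0.65.

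Among the paralogs, Rps4l and Rps27l rose in the D6 arm. Rps4l had 17.4, 18.5 and 19.3 CPM in Torin D6, against 13.1, 12.7 and 11.8 CPM in DMSO D6 (log2 0.56, SE 0.12). Rps27l had 286, 235 and 386 CPM in Torin D6, against 221, 212 and 195 CPM in DMSO D6 (log2 0.53). Neither pair of groups overlapped. Rpl22l1 had 76.7, 55.5 and 129 CPM in Torin D6, against 61.1, 52.6 and 48.0 CPM in DMSO D6, with overlap (log2 0.69, SE 0.30; adjusted p = 0.093). Rps27l made 49.9 ± 6.91% of its pair with Rps27 in Torin D6 and 39.3 ± 0.632% in DMSO D6 (SD, n = 3 each), per kilobase of coding sequence. In the D12 arm the same part was 38.8 ± 2.04% in Torin D12 and 41.8 ± 2.10% in DMSO D12.

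In the D12 arm, 10 of the 83 tested genes rose with Torin and none fell, while 25.4% of all genes tested changed (10.8% rose and 14.6% fell). The median core gene had a log2 of 0.13, beside 0.01 for all genes tested, and 65 of 77 core genes had a positive value. Groups did not overlap for 21 of the 77, compared with 43.7% of all genes tested. Against the mean of DMSO D12 the median core gene lay at −0.06, −0.08 and 0.45 in the 3 Torin D12 libraries, with 32, 35 and 77 of 77 core genes above that mean. The count of 10 was 6 without Torin D12 library 3, 5 without DMSO D12 library 2 and 5 without DMSO D12 library 3.

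Rps12, known from Drosophila as a sensor in cell competition, had the largest rise of the family in the D12 arm. It had 159, 171 and 101 CPM in Torin D12, against 67.9, 69.4 and 84.0 CPM in DMSO D12 (log2 0.96, SE 0.20; Benjamini-Hochberg adjusted p = 0.0039 in the edgeR test). All Torin D12 libraries were higher than every DMSO D12 library, with library 3 the nearest to them. In the D6 arm Rps12 had 70.7, 103 and 71.4 CPM in Torin D6, against 61.4, 73.1 and 67.3 CPM in DMSO D6, and did not pass (log2 0.28, SE 0.20). Its coding words are all shared with other genes. Summed with 6 near-identical copies it had 235, 256 and 152 CPM in Torin D12, against 113, 105 and 129 CPM in DMSO D12, and still rose (log2 0.89; adjusted p = 0.0043). The copy-like locus Rps12l1 overlapped between the groups, with 2.02, 31.5 and 0.560 CPM in Torin D12, against 34.1, 1.17 and 18.7 CPM in DMSO D12.

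Rplp1 had 377, 427 and 348 CPM in Torin D12, against 254, 230 and 240 CPM in DMSO D12 (log2 0.67, SE 0.095; Benjamini-Hochberg adjusted p = 3.5e-04 in the edgeR test). Rpsa had 320, 340 and 324 CPM in Torin D12, against 228, 220 and 227 CPM in DMSO D12 (log2 0.54, SE 0.091). For both, all 3 Torin D12 libraries were above the controls and library 3 was not the highest. Rpl5 had 61.3, 64.4 and 62.9 CPM in Torin D12, against 40.2, 46.4 and 47.4 CPM in DMSO D12 (log2 0.49, SE 0.098). Rps25, needed for some forms of internal initiation, had 467, 513 and 429 CPM in Torin D12, against 362, 348 and 348 CPM in DMSO D12 (log2 0.41, SE 0.13; adjusted p = 0.0404). Both genes were again higher in every Torin library. Rps4l (log2 0.56), Rpl12 (log2 0.43), Rplp2 (log2 0.40), Rpl4 (log2 0.36) and Rpl28 (log2 0.30) completed the 10.

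Rplp0 had 1151, 1133 and 1645 CPM in Torin D12, against 1119, 1108 and 963 CPM in DMSO D12, and did not pass (log2 0.30, SE 0.16; adjusted p = 0.209). Rps6 had 567, 544 and 857 CPM in Torin D12, against 630, 617 and 528 CPM in DMSO D12, and did not pass either (log2 0.15, SE 0.20; Benjamini-Hochberg adjusted p = 0.642 in the edgeR test). For Rps6 the first and second Torin D12 libraries lay between the controls and the third above all of them. Rpl12, Rpl28, Rpl4, Rpl5, Rplp1, Rplp2, Rps4l and Rpsa, 8 genes in all, passed in both arms. Another 15 passed in the D6 arm alone, and Rps12 and Rps25 in the D12 arm alone.

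**Figure D4:**
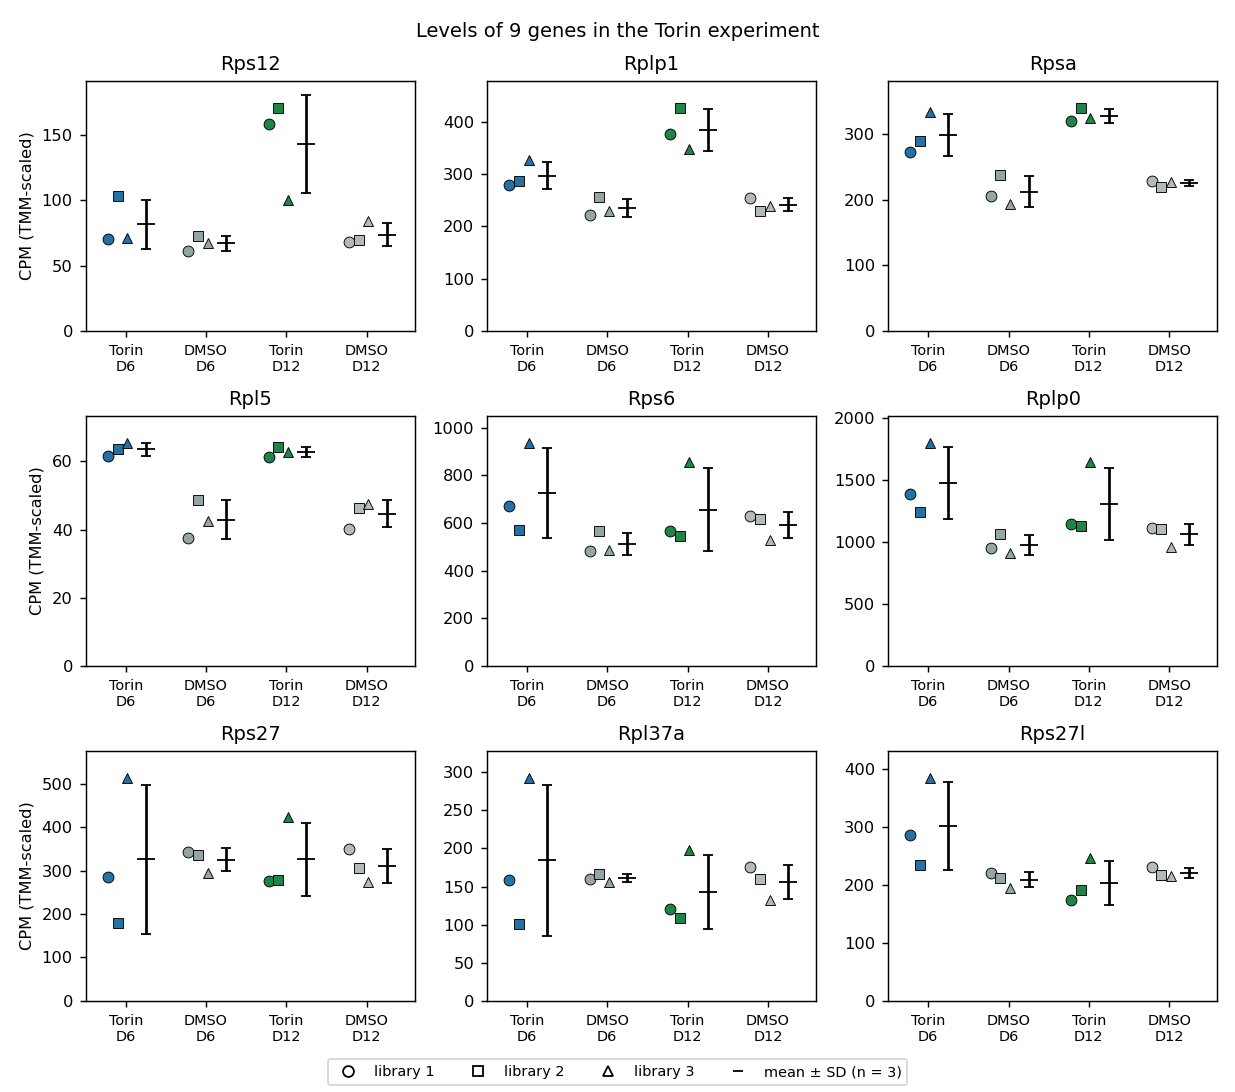
CPM of 9 genes in the 4 groups of the Torin experiment, with marker shapes for the library and the mean ± SD of 3 libraries beside each group. Rps12 is highest in Torin D12 libraries 1 and 2 (159 and 171 CPM), Rpl5 and Rpsa are tight within groups, and in Rps6, Rps27 and Rpl37a the triangle of library 3 lies far above the other Torin libraries.

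Without library 3 of both Torin groups the picture in each arm was less uniform. Those libraries were left out because these same genes stood apart in them, mostly upward. Lower Torin levels and a smaller spread therefore follow in part from that choice, also where this setting is used below. Library 3 of both DMSO groups, which deviated the other way, was kept. In the D6 arm 25 genes rose and 1 fell, the median core log2 was 0.15, and 22 of the 23 genes that rose with all libraries were again called, while 41.3% of all genes tested changed. The gene that fell was Rps27, with a log2 of −0.49 (Benjamini-Hochberg adjusted p = 0.0166 in the edgeR test). Rps6 rose in that setting (log2 0.27; adjusted p = 0.0285), and so did Rps12 (log2 0.36; adjusted p = 0.0425). In the D12 arm 13 genes rose, including all 10 named above, and 11 fell, while 35.6% of all genes tested changed and the median core log2 was −0.05. Rps12 then rose by 1.18, Rplp1 by 0.75, Rpsa by 0.57 and Rps25 by 0.49 on the log2 scale. The 11 that fell were Rpl39 (log2 −0.54), Rpl36 (log2 −0.46), Rpl37a (log2 −0.43), Rpl10 (log2 −0.42), Rpl24 (log2 −0.41), Rpl41 (log2 −0.39), Rpl11 (log2 −0.38), Rpl32 (log2 −0.36), Rpl36al (log2 −0.35), Rps19 (log2 −0.29) and Rps27l (log2 −0.26).

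**Figure D5:**
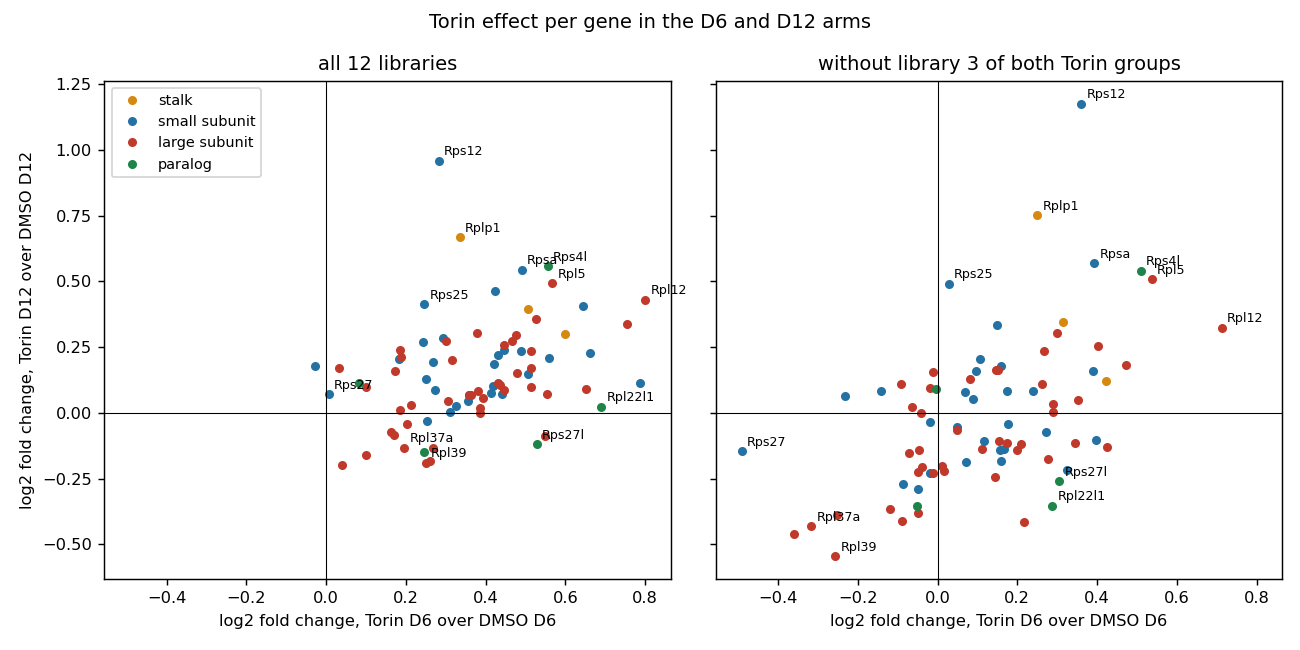
Log2 fold change in the D12 arm (vertical) against that in the D6 arm (horizontal) for core genes and tested paralogs, coloured by class, with all 12 libraries on the left and without library 3 of both Torin groups on the right. Nearly all points lie right of 0 on the left panel (76 of 77 core genes positive in D6), and on the right panel the points spread to both sides, with Rps12 and Rplp1 highest and Rpl39 lowest.

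The difference between the arms was tested as an interaction, D12 minus D6. None of the 83 tested genes passed in edgeR's quasi-likelihood test, DESeq2 or limma, while 10.6% of all genes tested passed in edgeR (5.03% higher and 5.55% lower). An unadjusted p under 0.05 was reached by 4 of the 83 in each of the 3 tests, and by 4378 of all 18112 genes tested in edgeR. Among the 4 in edgeR were Rps27l (log2 −0.65, SE 0.23; adjusted p = 0.108), Rplp1 (log2 0.33, SE 0.13; adjusted p = 0.148) and Rps12 (log2 0.68, SE 0.28; adjusted p = 0.158). The median core gene had a log2 of −0.25, and 12 of 77 were positive. Leaving out Torin D6 library 2 gave 1 call, Torin D6 library 3 gave 2 and Torin D12 library 3 gave 4. Without library 3 of both Torin groups 11 genes passed, while 17.9% of all genes tested did. Rps12 (log2 0.82), Rplp1 (log2 0.50) and Rps25 (log2 0.46) then had the larger value in D12. The other 8 (among them Rpl22l1, Rpl10, Rpl27, Rps27l, Rps13, Rpl14 and Rpl6) had the smaller value there, with log2 values of −0.64 to −0.45.

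Relative to the ribosomal protein pool, none of the 83 genes passed in either Torin arm or in their difference by edgeR's quasi-likelihood test. Of all genes tested, 25.6% passed in D6, 11.6% in D12 and 3.52% in the difference. In D6, 6 of the 83 had an unadjusted p under 0.05 in that test, as did 6759 of all 18112 genes tested. Among the 6 were Rpl23 (log2 0.37), Rpl12 (log2 0.46) and Rps14 (log2 −0.36). In D12, 5 of the 83 had such a p, as did 4358 of all genes tested. Among the 5 were Rplp1 (log2 0.56), Rps12 (log2 0.87) and Rpsa (log2 0.42). In the difference 0 of the 83 had one, beside 2459 of all genes tested. Without library 3 of both Torin groups, a setting added after the data were seen, 15 genes passed relative to the pool in D6, 19 in D12 and 5 in the difference, while 33.5, 25.2 and 11.0% of all genes tested did. In D6, Rpl12 (log2 0.57) and Rpl5 (log2 0.41) were then the highest of 7, and Rps27 (log2 −0.65), Rpl36 (log2 −0.51) and Rpl37a (log2 −0.47) the lowest of 8. In D12, Rps12 (log2 1.17), Rplp1 (log2 0.75) and Rpsa (log2 0.57) were the highest of 9, and Rpl39 (log2 −0.53), Rpl36 (log2 −0.45) and Rpl37a (log2 −0.42) the lowest of 10.

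Between the controls, DMSO D12 and DMSO D6, none of the 83 genes passed by edgeR's quasi-likelihood test, DESeq2 or limma, while 0.00552% of all genes tested passed in edgeR. An unadjusted p under 0.05 was reached by 1 of the 83 in each test, and by 732 of all 18112 genes tested in edgeR. The 1 of the 83 was Rpl12 in edgeR (log2 0.35, SE 0.13). The median core gene had a log2 of 0.09, with 70 of 77 positive.

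Coding length was set beside the fold changes as a description over the 77 core genes. The 26 genes with the shortest coding sequence (75 to 405 bases) had a median log2 of −0.35 with estradiol, the 25 in the middle (405 to 564 bases) −0.32, and the 26 longest (576 to 1257 bases) −0.25. In the D6 arm without library 3 of Torin the medians were 0.00, 0.11 and 0.19 in the same order. In the D12 arm without library 3 they were 0.04, −0.08 and −0.06. The deviation of library 3 in Torin D6 had medians of 0.70, 0.63 and 0.52, the reverse order to the D6 effect, and that in Torin D12 had 0.44, 0.51 and 0.51. Pearson correlations with log2 coding length were 0.40 for estradiol, 0.50 for D6 without library 3, 0.13 for D12 without library 3, −0.47 for the deviation of library 3 in Torin D6 and −0.07 for that in Torin D12. With all libraries they were 0.30 for D6 and 0.14 for D12. Estradiol and Torin D6 effects, which share no library, had a Pearson correlation of 0.50 over the 77 genes, and estradiol and Torin D12 effects one of 0.26. The points share gene length, base composition and copies.

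Other messages known to carry the same tract also fell with estradiol for the most part. Of 24 tested, 19 fell and none rose, with a median log2 of −0.19. Tpt1, the translationally controlled tumour protein, had 1601, 1547 and 1645 CPM in Estradiol, against 2138, 2176 and 2098 CPM in Ethanol (log2 −0.42, SE 0.035). Fau, which encodes a small subunit protein fused to a ubiquitin-like one, fell by 0.39, and the initiation factor gene Eif4b by 0.33 on the log2 scale. In the D6 arm 12 of 26 rose and none fell (median 0.50), among them the nucleolar chaperone gene Npm1 with 526, 485 and 711 CPM in Torin D6, against 300, 315 and 279 CPM in DMSO D6 (log2 0.95, SE 0.13). In the D12 arm 8 of 26 rose and none fell (median 0.21). Of all genes tested 17.4% rose and 16.6% fell with estradiol. In D6 19.8% rose and 19.3% fell, and in D12 10.8% rose and 14.6% fell. Without library 3 of both Torin groups the counts were 14 risen and 0 fallen in D6, and 10 risen and 4 fallen in D12. In that setting 41.3% of all genes tested changed in D6 and 35.6% in D12.

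Rack1, a scaffold protein bound to the small subunit, was highest in Torin D12 libraries 1 and 2, as Rps12 was. It had 661, 684 and 463 CPM in Torin D12, against 363, 338 and 385 CPM in DMSO D12 (log2 0.73, SE 0.14; adjusted p = 0.0023). In the D6 arm it had 400, 486 and 399 CPM in Torin D6, against 317, 368 and 341 CPM in DMSO D6. Hnrnpa1, an RNA-binding protein gene, had 520, 517 and 390 CPM in Torin D12, against 252, 254 and 275 CPM in DMSO D12 (log2 0.87, SE 0.11; adjusted p = 1.9e-04). The elongation factor gene Eef2 had 1342, 1503 and 1304 CPM in Torin D12, against 953, 932 and 931 CPM in DMSO D12 (log2 0.56, SE 0.092; Benjamini-Hochberg adjusted p = 9.9e-04 in the edgeR test). In these 3 genes library 3 was the lowest of Torin D12 and still above every DMSO D12 library.

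Genes of ribosome assembly went the other way from the core genes under estradiol. Of 38 tested, 29 rose and none fell, with a median log2 of 0.26, while 17.4% of all genes tested rose. Ddx21, a nucleolar RNA helicase, had 153, 150 and 150 CPM in Estradiol, against 102, 106 and 105 CPM in Ethanol (log2 0.53, SE 0.041), and Nop56, of the ribosomal RNA methylation complex, had 100, 101 and 104 CPM in Estradiol, against 64.6, 68.9 and 70.4 CPM in Ethanol (log2 0.58). In the Torin arms 37 of 40 rose in D6 (median 0.86, none fell) and 31 of 40 in D12 (median 0.56, 1 fell), beside 21 of 77 core genes in D6 and 9 of 77 in D12. Of all genes tested 19.8% rose in D6 and 10.8% in D12, and the lists were not tested against each other. Ddx21 had 98.4, 99.9 and 97.6 CPM in Torin D6, against 39.5, 32.2 and 35.8 CPM in DMSO D6 (log2 1.46, SE 0.082). Rrp12, needed for export of the subunits, had 27.4, 29.1 and 25.9 CPM in Torin D12, against 9.17, 9.84 and 9.64 CPM in DMSO D12 (log2 1.52, SE 0.13). Without library 3 of both Torin groups 38 rose in D6, and 35 rose and 2 fell in D12. Of all genes tested 41.3% then changed in D6 and 35.6% in D12.

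The shares of all genes tested that rose and fell, to read the next lists against, were 17.4 and 16.6% with estradiol, 19.8 and 19.3% in D6, and 10.8 and 14.6% in D12. Of the genes for mitochondrial ribosomal proteins, which belong to another ribosome, 9 of 77 rose and 4 fell with estradiol (median log2 0.04). With Torin 27 of 78 rose and 6 fell in D6 (median 0.20), and 13 rose and 4 fell in D12 (median 0.07). Leaving out library 3 of both Torin groups, 25 rose and 8 fell in D6, and 18 rose and 9 fell in D12. Initiation factors rose in 12 of 28 cases and fell in 3 with estradiol, rose in 17 and fell in 2 in D6, and rose in 6 and fell in 5 in D12. Without library 3 they rose in 17 and fell in 2 in D6, and rose in 10 and fell in 8 in D12. Of 14 genes of the mTOR and S6 kinase axis, 3 rose and 3 fell with estradiol, 4 rose and 2 fell in D6, and 1 rose and 1 fell in D12. Without library 3, 7 rose and 3 fell in D6, and 4 rose and 1 fell in D12, while 41.3% of all genes tested changed in D6 and 35.6% in D12. Larp1, the protein that binds the tract, had 35.0, 35.8 and 50.8 CPM in Torin D6, against 26.1, 23.4 and 23.0 CPM in DMSO D6 (log2 0.75, SE 0.14). The 2 genes of that axis that fell in D6 had lower p-values in the edgeR test than Larp1. Ribosomal protein pseudogenes fell in 8 of 22 tested cases with estradiol and rose in none.

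Genes around p53, with which free Rpl5 and Rpl11 are linked through Mdm2, rose in 6 of 10 cases with estradiol and fell in none. In D6 8 rose and 1 fell, and in D12 1 rose and 3 fell. Leaving out library 3 of both Torin groups, 7 rose and 1 fell in D6, and 1 rose and 5 fell in D12. In that setting 41.3% of all genes tested changed in D6 and 35.6% in D12. Mdm2 had 177, 182 and 166 CPM in Torin D6, against 101, 96.6 and 101 CPM in DMSO D6 (log2 0.82, SE 0.077). Cdkn1a, the p53 target p21, had 93.6, 92.9 and 104 CPM in Torin D12, against 220, 196 and 229 CPM in DMSO D12 (log2 −1.15, SE 0.10). With all libraries the difference between the arms itself passed for 7 of the 10, all lower in D12, while 10.6% of all genes tested passed (5.03% higher and 5.55% lower). Among the 7 were Ccng1 (log2 −1.32, SE 0.12) and Cdkn1a (log2 −1.43, SE 0.14).

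Markers of cell types moved with the groups and are given as summed CPM of each list. Of 9 fibroblast markers all were detected, and their sum was 406 to 472 CPM in Estradiol, against 285 to 319 CPM in Ethanol. The same sum was 280 to 331 CPM in Torin D6, against 863 to 1267 CPM in DMSO D6, and 749 to 1083 CPM in Torin D12, against 865 to 1006 CPM in DMSO D12. The 9 luminal markers summed to 4886 to 4945 CPM in Estradiol, against 4661 to 4995 CPM in Ethanol, to 8898 to 9510 CPM in Torin D6, against 5680 to 6644 CPM in DMSO D6, and to 5254 to 6411 CPM in Torin D12, against 6781 to 7030 CPM in DMSO D12. The 9 basal markers summed to 8896 to 9262 CPM in Estradiol, against 8004 to 8760 CPM in Ethanol, to 1724 to 2096 CPM in Torin D6, against 2475 to 2754 CPM in DMSO D6, and to 1821 to 2455 CPM in Torin D12, against 3203 to 3368 CPM in DMSO D12. A sum follows its most abundant genes. Of the 9 basal markers 2 rose and 5 fell with estradiol (median log2 −0.32). In D6 2 of them rose and 2 fell, and in D12 2 rose and 4 fell. Luminal markers rose in 4 of 9 cases and fell in 3 with estradiol. They rose in 5 and fell in 2 in D6, and 4 fell and none rose in D12. Fibroblast markers rose in 5 of 9 cases and fell in 1 with estradiol. All 9 fell in D6, and 1 rose and 2 fell in D12. Immune, endothelial and adipocyte lists summed to at most 11.7, 15.0 and 1.03 CPM in any library, with Cd79a, Lyz2, Emcn, Cdh5, Lep, Adipoq and Cfd among those at 0 in 1 or more groups. The part of these shifts in cell makeup in the ribosomal protein results was not tested.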

How the data were processed

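Polyadenylated RNA was sequenced as paired ends from 18 stranded libraries. The submitters' processing notes list kallisto, DESeq2, Trim Galore, cutadapt, MultiQC, FastQC and GRCm39, and give no version or role. The table of the estradiol libraries, as the authors deposited it, holds estimated counts (32.2% not whole), which were rounded. That of the Torin libraries, also as deposited, holds whole counts. Normalized values that the authors deposited, a signal, enter only alternatives. The treatment of reads that match several near-identical genes is not stated. The series text mentions further Torin samples beside these 12, which were not analysed here.

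The 2 tables had a fit each, in edgeR 4.0.16 (R 4.3.3): filterByExpr, TMM scaling, group means and the quasi-likelihood test, with Benjamini-Hochberg adjustment over all genes tested and 0.05 as the threshold. Only a gene past it is said to rise, fall or change. The SE of a fold change is its absolute log2 value over the square root of the F statistic of the quasi-likelihood test. CPM are scaled by TMM. The pool fit used the summed counts of the ribosomal protein genes as library size. Both fits were run on simulated counts with known changes in randomly drawn genes and the same dispersion for every gene. The simulation held no shift of the whole family and no deviating library, so it does not cover those cases. Symbols of the estradiol table came from the deposited normalized table. The ribosomal protein genes, the companion lists and the tests were chosen with earlier results of these data known. Named genes are the stalk genes, Rpsa, Rps6, Rpl5, Rpl11, Rpl13a, Rps18, the paralog pairs, the 5 highest and 5 lowest fold changes of a comparison, the 5 lowest p relative to the pool, and the 3 lowest p of a companion list with at least 3 calls; any other gene was picked with its values known. A few genes are not reported here or shown in the figures, but remain in the fits, counts and sums.

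Alternatives were RLE size factors, TMM without these genes, no filter, 1 CPM in 3 libraries, a threshold of 0.01, the replicate block, DESeq2 1.42.0, limma 3.58.1 on the log2 of 1 plus that signal (genes of mean 10 or more), fits of the 2 groups alone, each library left out, and the third Torin libraries left out. Copies were genes holding at least 50% of the words of 31 bases of a coding sequence in GENCODE M21, 298 copies for 68 genes. Start sequences are from RefSeq on GRCm38.p6, while the files name GRCm39, so no coordinate was joined to the counts.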

Additional observations from a re-analysis of the deposited data

How the results depend on the processing

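The count of ribosomal protein genes past the threshold with estradiol (77) was 74 to 78 under all settings run, and 75 to 77 with 1 library left out. It was 77 with the replicate block, 77 with DESeq2 and 76 with limma. Relative to the pool the estradiol count of 22 was 12 to 23 with 1 library left out. In Torin D6 (23) the count was 11 at an adjusted p under 0.01 and 11 to 45 with 1 library left out. In Torin D12 (10) it was 5 at an adjusted p under 0.01, 5 to 7 with 1 library left out and 24 without library 3 of both Torin groups. The difference of the arms (0) gave 0 to 4 with 1 library left out and 11 without library 3 of both Torin groups. Relative to the pool the counts without library 3 of both Torin groups were 15 in D6, 19 in D12 and 5 in the difference, against 0 with all libraries. With 1 library left out they were 0 to 4 in D6 and in D12 and 0 to 0 in the difference. DMSO D12 against DMSO D6 gave 0 in every setting run. The cause of these shifts was not tested.

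Deviations from the group means were correlated over all genes with at least 5 CPM. For same-numbered libraries of different groups the values were −0.10 to −0.04 between Estradiol and Ethanol. Among the Torin and DMSO groups they were −0.42 to 0.14, highest for library 3 of both Torin groups. Differently numbered libraries there ran from −0.33 to 0.39, highest for Torin D6 library 2 with Torin D12 library 1. Not every same-numbered pair was over 0.1, so the library numbers were not taken as pairing. In the ribosomal protein genes, however, library 3 of both Torin groups deviated alike. The replicate block moved the estradiol count relative to the pool to 13, and gave 20 in Torin D6, 7 in Torin D12 and 0 in the difference.

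Of the values of single genes, 140 were recomputed in 2299 alternatives: 2234 kept direction and side of the threshold, 37 passed it anew, 27 no longer passed and 1 reversed, namely Rps27 in D6 at −0.49 without library 3 of both Torin groups. With pseudogene rows added the summed share was 5.70% in Estradiol, 6.66% in Ethanol and 2.31% in DMSO D6. Rpl5 and Rpl12 rest on few of the family's reads in the estradiol table, since their copies hold most of them. Copies also held more counts than the Rpl27a row in every library of both experiments (12716 against 7507 in Ethanol library 1, 1920 against 1196 in DMSO D6 library 1). In the Torin experiment the copies of Rpl12 held more than its row in some libraries (528 against 327 in DMSO D6 library 1) and less in others.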
